A study of Rattus norvegicus with 14 samples.

Results

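The axon guidance ligands and receptors described here were the 69 genes, of 30562 in the deposited tables, whose symbols named the semaphorins, plexins, neuropilins, ephrins, Eph receptors, Slits, Robos, netrins and netrin receptors. The rule used gene symbols only. The set held 7 class 3 semaphorins, 13 other semaphorins, 2 neuropilins, 9 plexins, 5 ephrin-A and 3 ephrin-B ligands, 9 EphA and 5 EphB receptors, 3 Slits, 4 Robos, 4 netrins, and the netrin receptors Unc5a to Unc5d and Dcc. The RNA came from lumbar dorsal root ganglia, at levels L2 to L5, and the animals were 7 wild-type (WT) male rats. In each rat the extensor digitorum longus, a muscle of the lower leg, had been grafted to the saphenous nerve of one hindlimb, and the other hindlimb was not operated on. The ganglia of the operated side gave a surgical library and those of the unoperated side a control library. Rats D, C, G and H were taken at 8 weeks and rats A, B and E at 6 weeks, so that every comparison between times was between different rats. The strain and the age of the rats were not given in the sources used here, and the unoperated side belonged to an animal that had surgery on the other side, with no rat without surgery among the samples.

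Guidance cues are secreted or membrane-bound proteins that attract or repel the tip of a growing axon, and many of them stay expressed in adult nerve and ganglion. Class 3 semaphorins are secreted and act through a neuropilin that binds them and a plexin that signals, while ephrins stay on the cell surface and bind Eph receptor tyrosine kinases on the neighbouring cell. Slits repel axons that carry Robo receptors, and netrins attract through Dcc and repel through the Unc5 receptors. Sensory neurons of the ganglion are themselves guided by several of these systems when they grow into skin and muscle.

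Total estimated counts ranged from 18489118 to 28237574 per library. All 69 members had counts in all 14 libraries, and their summed counts ranged from 27165 to 56295. All 16 neuron markers and all 8 satellite glia markers had counts in every group, and the neuron markers summed to 10100 to 28380 TPM (transcripts scaled for length and library size) on the surgical side and 13560 to 26280 TPM on the control side at 8 weeks, and to 1894 to 17040 TPM and 2910 to 18290 TPM on the surgical and control sides at 6 weeks.

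The libraries differed in which tissues they held. The mean level of 16 neuron markers was 6.09 log2 CPM (counts scaled for library size) in rat A's surgical library and 6.93 in rat B's control library, and 7.97 to 9.52 in the other 12. Skeletal muscle markers (11 genes) averaged 11.18 log2 CPM (rat C, surgical), 8.77 (rat H, control) and 6.54 (rat E, surgical), and 0.09 to 3.55 in the other libraries. Markers of spinal cord and central glia averaged 5.47 log2 CPM in rat B's surgical library and at most 0.84 in the others. In these bulk samples, fewer cells of a type and less RNA per cell cannot be told apart.

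Per length of transcript, semaphorins made up most of the guidance RNA in these ganglia. The 7 class 3 semaphorins together held 58.2 to 197 TPM on the surgical side and 144 to 183 TPM on the control side at 8 weeks, and 75.1 to 162 TPM on the surgical side and 77.9 to 149.9 TPM on the control side at 6 weeks. Sema3b, a secreted semaphorin that binds neuropilins, was the most abundant of all 69 with a mean of 87.7 ± 30.6 TPM (SD, n = 14). Among the rats at 8 weeks Sema3b stood at 137, 30.02, 82.9 and 107 TPM on the surgical side, against 111, 114, 95.8 and 83.5 TPM on the control side, in the order D, C, G and H that is used for all values at 8 weeks below. At 6 weeks it stood at 92.9, 42.4 and 109.8 TPM on the surgical side, against 67.7, 49.8 and 104 TPM on the control side, in the order A, B and E. Rat C's surgical library was the lowest of all for Sema3b. Sema3a, the class 3 cue known to repel sensory axons through Nrp1 and Plxna4, was scarce by comparison, with a mean of 0.425 ± 0.336 TPM. Its libraries at 8 weeks held 0.357, 1.04, 0.181 and 0.210 TPM on the surgical side, against 0.0806, 0.279, 0.134 and 1.07 TPM on the control side, and those at 6 weeks 0.352, 0.907 and 0.160 TPM on the surgical side, against 0.552, 0.362 and 0.271 TPM on the control side. The groups overlapped at both times, and the 2 highest libraries at 8 weeks were the 2 with the most muscle RNA, whose part in the level was not tested.

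Sema7a, a semaphorin held at the membrane by a lipid anchor, was the most abundant of the other semaphorins at 50.2 ± 27.4 TPM (mean ± SD, n = 14). At 8 weeks it stood at 69.5, 32.2, 73.1 and 88.6 TPM on the surgical side, against 84.3, 67.2, 77.5 and 35.1 TPM on the control side. At 6 weeks it stood at 7.62, 41.8 and 49.4 TPM on the surgical side, against 18.9, 7.93 and 49.8 TPM on the control side. The 2 libraries with the fewest neuron markers, the surgical one of rat A and the control one of rat B, were also the 2 lowest for Sema7a. Its receptor Plxnc1 averaged 8.72 ± 4.05 TPM, and the most abundant plexin, Plxnd1, a receptor that can bind Sema3e without a neuropilin, averaged 13.4 ± 4.09 TPM. Plxnd1 ranged from 12.8 to 16.9 TPM on the surgical side and from 14.03 to 21.6 TPM on the control side at 8 weeks, and from 8.48 to 15.4 TPM and from 6.62 to 12.2 TPM on the surgical and control sides at 6 weeks. Plxna4, the plexin that works with Nrp1 in sensory axons, averaged 2.601 ± 1.15 TPM. Of the neuropilins, Nrp2 averaged 12.3 ± 4.34 TPM and Nrp1 8.49 ± 3.37 TPM.

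The ephrins and Eph receptors were led by Efnb1 at 10.3 ± 4.01 TPM, Efna1 at 11.3 ± 4.53 TPM, Ephb6 at 10.4 ± 4.76 TPM and Epha5 at 2.87 ± 1.69 TPM (mean ± SD, n = 14). Efna1, a ligand of EphA receptors, stood, at 8 weeks, at 11.4, 10.8, 11.5 and 13.7 TPM on the surgical side, against 14.1, 17.2, 19.9 and 11.1 TPM on the control side, and, at 6 weeks, at 4.66, 7.49 and 13.2 TPM on the surgical side, against 6.198, 4.08 and 13.4 TPM on the control side. Ephb6, an Eph receptor without kinase activity, stood, at 8 weeks, at 11.8, 5.79, 12.5 and 16.1 TPM on the surgical side, against 10.5, 18.02, 18.05 and 11.5 TPM on the control side. Epha4, which binds ephrins of both classes, was low at 0.789 ± 0.445 TPM. Its highest library was the surgical one of rat B at 1.78 TPM, and its lowest the surgical one of rat A at 0.240 TPM.

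Ntn1, the secreted netrin that attracts or repels axons according to the receptor they carry, averaged 10.1 ± 5.58 TPM, whereas Dcc, its attractive receptor, averaged 0.168 ± 0.0939 TPM (mean ± SD, n = 14). Dcc rested on few reads, with 30, 4, 20 and 8 counts on the surgical side and 28, 16, 23 and 24 on the control side at 8 weeks, and 8, 25 and 13 and 12, 6 and 9 on the surgical and control sides at 6 weeks. Unc5b led the Unc5 receptors at 2.799 ± 2.06 TPM. Among Slits and their receptors, Slit1 averaged 10.9 ± 6.85 TPM, Slit2 5.81 ± 1.18 TPM and Robo2 10.3 ± 5.59 TPM. The least abundant members were Epha1 at 0.139 ± 0.0619 TPM, Robo3 at 0.153 ± 0.0598 TPM and Dcc, and Epha1 was left out on the control side by the filter on low counts.

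**Figure D1:**
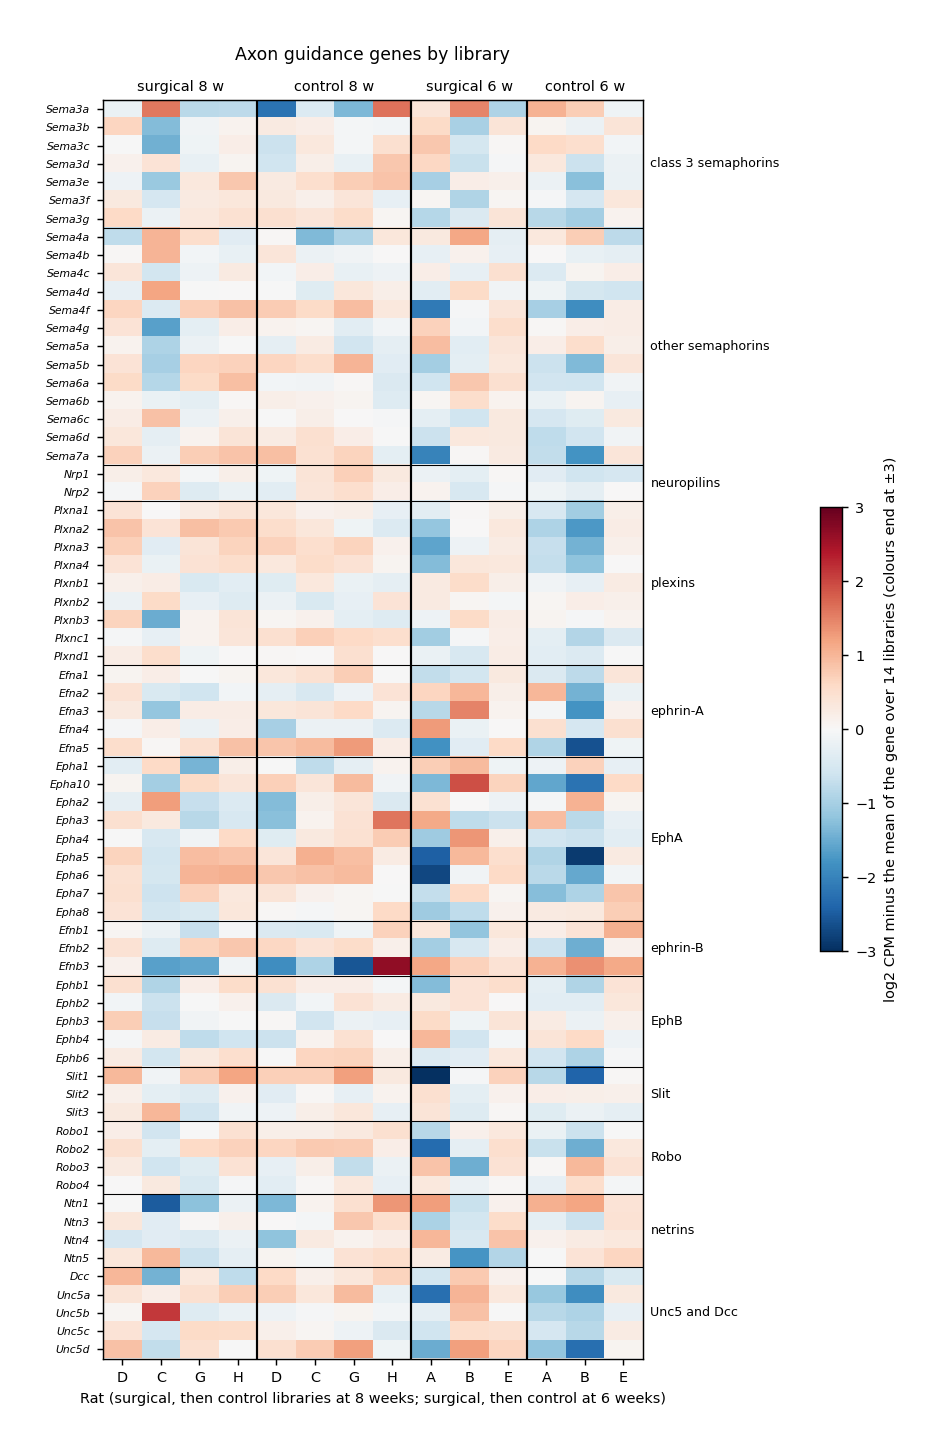
Level of each of the 69 guidance genes (rows, grouped by family) in each of the 14 libraries (columns), as log2 CPM minus the mean of the gene over the libraries. Red is above and blue below the mean of the gene; rat A's surgical library and rat B's control library are blue for many receptors and for Slit1, and Unc5b in rat C's surgical library and Efnb3 in rat H's control library stand out in red.

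Surgical against control ganglia over both times was the main question of the design, and none of the 69 members passed the test. The nearest were Plxna2, a plexin that signals for class 6 semaphorins, with a fitted log2 difference of 0.60 (SE 0.24), Epha8 with -0.58 (SE 0.26), Sema6a with 0.55 (SE 0.25), Ntn1 with -0.95 (SE 0.47) and Unc5b with 0.62 (SE 0.34). Each had an adjusted p of 1 by edgeR's quasi-likelihood test with the rat as a block and Benjamini-Hochberg adjustment over the 17035 genes tested. The same test called 0 of those genes (percent called 0). DESeq2 called 0 members and 6 genes (0.0352%), and limma called 0 members and 0 genes. At an unadjusted p under 0.05, edgeR gave 1 member, Plxna2, and 412 genes, which is 2.42% of those tested. None of the 69 was shifted one way in all 7 rats, which 1.19% of all genes were.

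Plxna2 was above its control library in 6 of the 7 rats in scaled counts, with rat A below. At 8 weeks it stood at 10.9, 6.81, 11.5 and 11.9 TPM on the surgical side, against 9.197, 8.74, 6.29 and 4.59 TPM on the control side, and rat C, whose surgical library was rich in muscle RNA, was the one below its control in TPM. At 6 weeks it stood at 1.92, 5.83 and 7.31 TPM on the surgical side, against 2.33, 1.16 and 6.35 TPM on the control side. Rat A was below its control on both scales, and without rats B, C and H the log2 difference over both times was 0.31. Sema6a, a membrane semaphorin that binds Plxna2 and Plxna4, was above its control in 5 of 7 rats. It stood, at 8 weeks, at 4.46, 1.37, 4.52 and 6.31 TPM on the surgical side, against 2.96, 3.13, 3.46 and 2.19 TPM on the control side, and, at 6 weeks, at 1.38, 5.02 and 4.06 TPM on the surgical side, against 1.47, 1.26 and 2.505 TPM on the control side. Rats A and C were the ones below, and they were also the 2 rats with the largest deficit of neuron markers on the surgical side, at -1.88 and -0.95 log2 CPM. Rats D and G, at -0.07 and -0.22 log2 CPM, were above their controls. Over the 7 rats Sema6a had a Pearson's r of 0.844 with these markers. The exact permutation p of that relation, adjusted over all genes, was 0.117.

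Ntn1 was lower on the surgical side in 5 of 7 rats, and its range at 8 weeks was wide. It stood, at 8 weeks, at 8.88, 1.34, 3.86 and 8.997 TPM on the surgical side, against 3.69, 10.9, 14.1 and 22.7 TPM on the control side, and, at 6 weeks, at 15.2, 5.402 and 9.36 TPM on the surgical side, against 13.9, 12.9 and 10.7 TPM on the control side. Without rats B, C and H, the rats with the most spinal cord or muscle RNA in a library, its log2 difference over both times was -0.11. Unc5b, a repulsive netrin receptor also found on endothelium, had its highest value, 9.22 TPM, in rat C's muscle-rich surgical library, and its log2 difference without rats B, C and H was 0.14. Its libraries stood, at 8 weeks, at 2.61, 9.22, 1.93 and 2.55 TPM on the surgical side, against 2.41, 2.79, 2.96 and 2.37 TPM on the control side, and, at 6 weeks, at 1.51, 4.63 and 2.37 TPM on the surgical side, against 1.06, 0.865 and 1.89 TPM on the control side. The part of muscle and spinal cord RNA in these values was not tested beyond that removal.

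By family, over both times, the netrins were lower on the surgical side in 4 of 4 members (median log2 difference -0.43), also on the TPM scale (-0.14). Their medians by rat were not of one sign, being positive in 2 rats and negative in 5. Plexins were positive in 7 of 9 (median 0.12), the membrane and other semaphorins in 9 of 13 (0.11) and the Unc5 and Dcc receptors in 4 of 5 (0.20), and these signs were the same on the TPM scale. The medians by rat of these 3 families were each positive in 4 rats and negative in 3. Class 3 semaphorins were negative in 4 of 7 (-0.11) and ephrin-B ligands in 2 of 3 (-0.27), with medians by rat positive in 3 rats and negative in 4 for each. Over all members 40 were positive and 29 negative with a median of 0.05, against 0.00 over all genes tested. Without rat B the members' median was -0.05 and 32 were positive. With a trend in transcript length removed from every library it was 0.01 and 38 were positive.

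At 8 weeks, 25 members were higher and 44 lower on the surgical side, with a median log2 difference of -0.08, against 0.01 over all genes. Without rat C the split was 36 higher of 69 and the median 0.03. None passed the adjusted threshold in edgeR, in DESeq2, which called 4 genes (0.0235%), or in limma, which called 0 genes. None had an unadjusted p under 0.05 in edgeR, which called 0 of 17035 genes (percent called 0) and gave 180 of them, 1.06%, at an unadjusted p under 0.05. In scaled counts, 2 members were higher and 2 lower in all 4 rats, against 2.5% of all genes higher and 4.56% lower (7.06% in either direction). These were Plxna2 at 0.66 (SE 0.33) and Efna4 at 0.53 (SE 0.34), and, in the other direction, Plxnc1 at -0.53 (SE 0.27) and Sema3e at -0.61 (SE 0.41), with adjusted p = 1 for each in the quasi-likelihood test. The value of Sema3e was -0.30 without rat C.

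Plxnc1, the receptor of Sema7a, stood, at 8 weeks, at 8.01, 5.92, 9.02 and 12.1 TPM on the surgical side, against 12.3, 15.6, 14.3 and 11.8 TPM on the control side. In TPM, rat H was level on its 2 sides, and the other 3 rats were lower on the surgical side. At 6 weeks Plxnc1 stood at 2.85, 7.74 and 9.17 TPM on the surgical side, against 5.01, 2.86 and 5.56 TPM on the control side, with rats B and E higher and rat A lower on the surgical side. Sema3e, the class 3 semaphorin that binds Plxnd1 directly, stood, at 8 weeks, at 1.11, 0.474, 1.58 and 2.48 TPM on the surgical side, against 1.58, 2.02, 2.35 and 2.296 TPM on the control side, and, at 6 weeks, at 0.435, 1.37 and 1.33 TPM on the surgical side, against 0.803, 0.324 and 0.978 TPM on the control side. Rat H was slightly higher on the surgical side for Sema3e in TPM and slightly lower in scaled counts. Efna4, another lipid-anchored ligand of EphA receptors, stood, at 8 weeks, at 1.15, 1.13, 1.08 and 1.597 TPM on the surgical side, against 0.489, 1.21, 1.19 and 0.901 TPM on the control side, where rats C and G were slightly lower in TPM although not in scaled counts. At 6 weeks Efna4 stood at 2.15, 0.948 and 1.17 TPM on the surgical side, against 1.26, 0.488 and 1.57 TPM on the control side. Ntn1 had the largest deficit at 8 weeks, -1.20 (SE 0.67), and was lower in 3 of 4 rats, with -0.70 without rat C and -1.92 without rat D.

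At 6 weeks the balance lay the other way, with 48 members higher and 21 lower on the surgical side and a median log2 difference of 0.20, against -0.01 over all genes. Rat A had 36 members higher and 33 lower (median 0.12), rat B had 46 and 23 (0.59), and rat E likewise 46 and 23 (0.11). Without rat B, 38 members were higher and the fitted median was 0.04, against -0.04 over all genes. Longer transcripts were higher on the surgical side at 6 weeks across all genes (Spearman's rho 0.405 over 15910 genes), and with a trend in length removed from every library 40 members were higher and their median was 0.10. The part of spinal cord RNA in rat B's surgical library was not tested beyond the removal of that rat. On the log2(TPM + 1) scale the median of all genes itself moved to 0.16 at 6 weeks, and the members' median of 0.28 on that scale is read against it. In edgeR, 0 members and 0 of 17035 genes passed the adjusted threshold (percent called 0). DESeq2 called 0 members and 44 genes (0.258%), 5 higher and 39 lower, and limma called 0 members and 0 genes. At an unadjusted p under 0.05 there was 1 member, Epha8, and 546 genes, 3.21%. All 3 rats were shifted one way in 9 members that were higher and 1 that was lower, against 12.6% of all genes higher and 12.5% lower. The 9 were Sema6d, Sema6b, Plxna1, Unc5b, Nrp1, Ephb6, Ephb3, Epha1 and Epha10.

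Epha8, an Eph receptor for ephrin-A ligands, was the member lower in all 3 rats at 6 weeks, with a log2 difference of -1.06 (SE 0.35) and an adjusted p of 0.999 in edgeR's quasi-likelihood test. It stood at 0.130, 0.224 and 0.429 TPM on the surgical side, against 0.370, 0.324 and 0.635 TPM on the control side, on 12, 17 and 28 counts against 32, 32 and 48. At 8 weeks it stood at 0.551, 0.231, 0.292 and 0.604 TPM on the surgical side, against 0.444, 0.457, 0.487 and 0.641 TPM on the control side. Sema6d, a membrane semaphorin that binds Plxna1, had a log2 difference of 0.47 (SE 0.24) at 6 weeks and stood at 3.43, 9.09 and 8.99 TPM on the surgical side, against 3.23, 3.25 and 6.36 TPM on the control side. Sema6b, another class 6 semaphorin, had 0.35 (SE 0.19) and stood at 5.25, 9.76 and 7.23 TPM on the surgical side, against 4.47, 4.72 and 5.35 TPM on the control side. In both genes the largest of the 3 shifts was that of rat B, and without it Sema6d was at 0.28. Without rats A and B, Epha8 was at -0.62.

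Efnb1, a transmembrane ligand of EphB receptors, had a log2 difference of -0.74 (SE 0.38) at 6 weeks and was lower in rats B and E, with -0.29 without rat B and -1.18 without rat A. It stood at 9.27, 4.34 and 12.7 TPM on the surgical side, against 8.78, 8.75 and 19.7 TPM on the control side. Ntn5 had -1.42 (SE 0.84) on very few reads, 9, 1 and 3 counts on the surgical side against 7, 10 and 13 on the control side, and -0.72 without rat B. Epha10, an Eph receptor without kinase activity, reached 1.94 TPM in rat B's surgical library, against 0.0556 TPM, on 5 counts, in its control library. That surgical library held spinal cord markers at 5.47 log2 CPM, and that control library neuron markers at 6.93 log2 CPM. Their part in the contrast was not tested. The other 2 rats at 6 weeks differed little, with 0.130 and 0.798 TPM on the surgical side of rats A and E, against 0.113 and 0.708 TPM on the control side.

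The difference between the 2 times in the shift of the sides was asked of every member, and none passed. Of the 69, 17 had a more positive and 52 a more negative side difference at 8 than at 6 weeks, with a median of -0.24, against 0.05 over all genes. Without rat B, 32 were more positive and the median was -0.05. Over all genes this difference ran with transcript length (Spearman's rho -0.36 over 15910 genes), and with a trend in length removed 29 members were more positive and the median was -0.11. The members with the smallest unadjusted p were Plxnc1 at -0.76 (SE 0.41), Epha8 at 0.83 (SE 0.46), Sema6d at -0.55 (SE 0.32), Sema6b at -0.43 (SE 0.26) and Epha10 at -1.91 (SE 1.14), with adjusted p = 1 for each in edgeR. Without rat B, Epha10 was at -0.65, Plxnc1 at -0.46 and Sema6d at -0.36. edgeR called 0 of 17035 genes (percent called 0) and gave 252 of them, 1.48%, at an unadjusted p under 0.05, with 0 members among them. DESeq2 called 0 members and 5 genes (0.0294%), and limma 0 of either. For 1 member, Epha8, the 4 rats at 8 weeks and the 3 at 6 weeks did not overlap, with the side difference higher at 8 weeks, against 2.34% of all genes higher and 1.45% lower (3.79% in either direction).

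**Figure D2:**
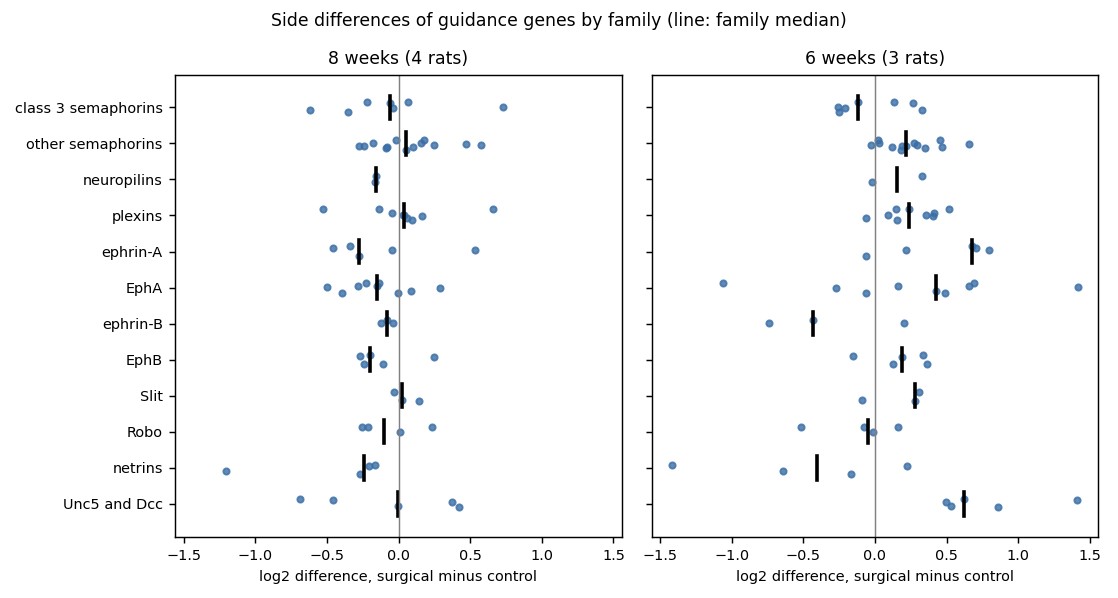
Fitted log2 difference between surgical and control ganglia for each guidance gene (points), by family, at 8 weeks (left) and 6 weeks (right), with a bar at the median of each family. The Unc5 and Dcc receptors lie between 0.49 and 1.41 at 6 weeks, while at 8 weeks they run from -0.69 to 0.42; Ntn1 is the leftmost point at 8 weeks.

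Family medians in scaled counts were negative at 8 weeks and positive at 6 weeks for the EphA and EphB receptors, the ephrin-A ligands and the neuropilins. They were negative at both times for the class 3 semaphorins, ephrin-B ligands, Robos and netrins. They were positive at both for the plexins, the other semaphorins and the Slits. The median of the Unc5 and Dcc receptors was -3e-04 at 8 weeks and 0.62 at 6 weeks. No test was made of these differences between families. At 8 weeks the EphA receptors were lower in 7 of 9 members (median -0.15), the EphB receptors in 4 of 5 (-0.20), the ephrin-A ligands in 4 of 5 (-0.28) and the netrins in 4 of 4 (-0.24). At 6 weeks the Unc5 and Dcc receptors were higher in 5 of 5 (median 0.62), the ephrin-A ligands in 4 of 5 (0.68), the plexins in 8 of 9 (0.24) and the membrane and other semaphorins in 12 of 13 (0.22). At 8 weeks the plexins (0.04), the membrane and other semaphorins (0.05) and the Slits (0.02) had medians near 0 that were -0.08, -0.06 and -0.08 on the TPM scale. At 6 weeks the class 3 semaphorins had a median of -0.12 in scaled counts and 0.10 in TPM, and the Robos -0.05 and 0.12. The other directions named here were the same on the TPM scale. All genes moved on that scale as well. Their median log2(TPM + 1) difference was -0.10 at 8 weeks and 0.16 at 6 weeks with a filter on low levels. It was -0.03 and 0.08 without a filter, so these small medians are read against those values. Within the 6-week rats, the median of the ephrin-A ligands was 2.27 in rat B, -0.36 in rat A and -0.04 in rat E. For the Unc5 and Dcc receptors it was 1.80 in rat B, -0.31 in rat A and 0.24 in rat E. For the plexins it was 0.85 in rat B, -0.23 in rat A and 0.11 in rat E. For the membrane and other semaphorins it was 0.46 in rat B, -0.03 in rat A and 0.28 in rat E. Of single rats, D had 50 members higher and 19 lower on the surgical side and H 41 and 28, while C had 21 and 48 and G 23 and 46.

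Within rats, the side differences of some members ran with those of the neuron markers, in a share close to that of all genes. The 16 markers differed between the surgical and the control library by -1.88 log2 CPM in rat A, 1.38 in rat B, 0.02 in rat E, -0.07 in rat D, -0.95 in rat C, -0.22 in rat G and 0.64 in rat H. Over these 7 rats, Pearson's r was computed for 17019 genes, the markers left out, and was over 0.8 in 18 of 69 members (26.1%), against 19.3% of all genes, and under -0.8 in 0 members, against 2.84%. In 6 members (8.7%) the exact permutation p, adjusted over all 17019 genes, was under 0.05 with a positive r, against 6.72% of all genes, and in 0 with a negative r, against 0.2%. Robo2, the Slit receptor most abundant here, had r = 0.991 and rho = 1.00, with an exact permutation p of 0.000198, the smallest that 7 rats can give, and an adjusted p of 0.0433. Slit1, a ligand of Robo2, had r = 0.982 with the same adjusted permutation p.

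The other 4 were Sema7a (r = 0.961), Plxna3 (0.960), Epha6 (0.956) and Sema4f (0.954), each with an adjusted exact permutation p of 0.0433 and Spearman's rho between 0.893 and 1.00. Without rats A and B, whose neuron markers lay farthest from the median, r ranged from 0.904 to 0.991 in these 6 over the 5 remaining rats. By Spearman's rho 9 members (13.0%) had an adjusted exact permutation p under 0.05, against 7.1% of all genes. The lowest r were those of Efnb1 at -0.763, with an adjusted exact permutation p of 0.178, and Ntn5 at -0.754, with 0.181 (n = 7 rats). Ntn1 had r = -0.242 and Unc5b r = 0.008. Members and markers were read in the same libraries, so the share of neurons and the level per neuron cannot be told apart. Rat B, with the highest difference in neuron markers, also had spinal cord markers at 5.47 log2 CPM in its surgical library. The part of spinal cord RNA in its neuron markers was not tested.

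**Figure D3:**
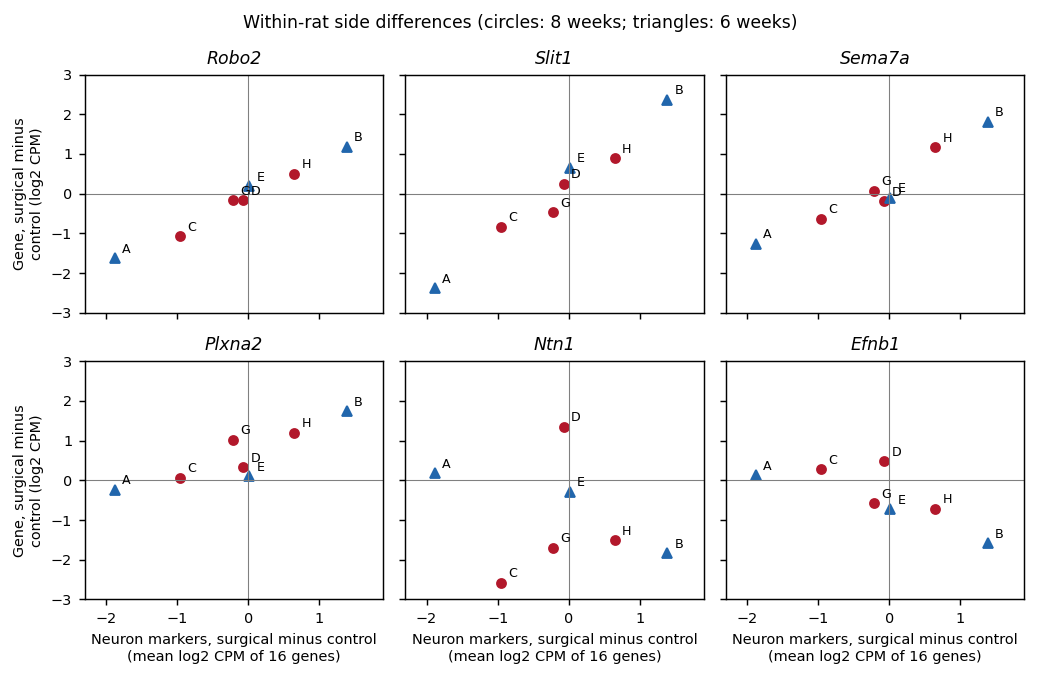
Side difference (surgical minus control, log2 CPM) of 6 guidance genes against that of the mean of 16 neuron markers, 1 point per rat (circles 8 weeks, triangles 6 weeks). Robo2, Slit1 and Sema7a lie along a line from rat A to rat B, Efnb1 slopes the other way without passing the adjusted threshold, and Ntn1 is scattered.

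The promoters of 4 members are shown because they were at opposite ends of that relation or, for Plxnc1, carried the smallest p between times. The window is 250 bases before to 50 bases after the start of the gene in RefSeq on the rat build GRCr8, on the strand of the gene, and a promoter could be matched by symbol for 54 of the 69 members. Capitals mark the GC box GGGCGG on either strand, the core of the site bound by Sp1-type factors. Robo2 (chr11:26526363-26526662, minus strand) holds 1, Sema7a (chr8:67244068-67244367, plus strand) 3, Plxnc1 (chr7:31430556-31430855, minus strand) 4 and Efnb1 (chrX:68297279-68297578, plus strand) 0.
Robo2: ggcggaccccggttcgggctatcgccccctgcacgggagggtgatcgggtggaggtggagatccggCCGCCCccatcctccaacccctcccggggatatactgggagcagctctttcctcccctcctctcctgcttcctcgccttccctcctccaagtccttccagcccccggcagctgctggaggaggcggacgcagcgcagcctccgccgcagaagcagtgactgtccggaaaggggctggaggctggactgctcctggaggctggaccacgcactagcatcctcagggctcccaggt
Sema7a: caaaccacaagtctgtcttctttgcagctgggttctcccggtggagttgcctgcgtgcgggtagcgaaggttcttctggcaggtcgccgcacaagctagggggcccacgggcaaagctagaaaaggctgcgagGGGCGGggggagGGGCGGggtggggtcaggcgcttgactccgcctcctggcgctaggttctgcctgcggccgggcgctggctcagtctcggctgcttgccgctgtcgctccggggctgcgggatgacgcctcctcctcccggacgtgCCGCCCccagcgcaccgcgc
Plxnc1: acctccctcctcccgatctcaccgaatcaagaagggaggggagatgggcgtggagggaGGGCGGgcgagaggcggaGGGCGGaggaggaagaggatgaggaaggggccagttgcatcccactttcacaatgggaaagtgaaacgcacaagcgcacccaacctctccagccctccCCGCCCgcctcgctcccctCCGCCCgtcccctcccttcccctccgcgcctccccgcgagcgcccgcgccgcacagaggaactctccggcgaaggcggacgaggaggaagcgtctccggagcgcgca
Efnb1: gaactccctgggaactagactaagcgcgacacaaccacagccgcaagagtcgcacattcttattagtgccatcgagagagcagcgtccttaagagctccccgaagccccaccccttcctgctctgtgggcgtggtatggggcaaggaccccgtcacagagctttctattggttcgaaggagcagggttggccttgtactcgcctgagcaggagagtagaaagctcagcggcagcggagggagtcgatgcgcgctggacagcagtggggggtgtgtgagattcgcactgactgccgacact
The GC box was in 30 of the 54 windows (55.6%), against 43.1% of 18999 protein-coding windows of the same length. The AP-1 motif TGANTCA was in 1 of 54 (1.85%), against 6.65%, and the cAMP response element TGACGTCA in 1 of 54 (1.85%), against 2.22%, each on both strands. The windows of the members had a median GC content of 63.8% and a median of 18 CpG sites, against 55.3% and 12 over all windows. These counts describe letters only.

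On the control side, ganglia at 8 weeks were compared with those at 6 weeks, in different rats, and here the guidance genes were mostly higher at 8 weeks. Of 68 tested members 44 were higher and 24 lower, with a median log2 difference of 0.25, against -0.06 over all 16346 genes tested. No member passed the adjusted threshold in edgeR's quasi-likelihood test, which called 25 genes (percent called 0.153), 3 higher (0.0184%) and 22 lower (0.135%). At an unadjusted p under 0.05 there were 22 members, 19 higher and 3 lower, and 5108 genes, 31.2%. In 15 members every rat at 8 weeks was above every rat at 6 weeks, against 14.3% of all genes, and in 1, Slit2, below, against 10.2%. The count differed between tools. DESeq2 called 14 of 68 members, all higher, among 3133 of 16346 genes (19.2%), 1565 higher and 1568 lower. With limma on log2(TPM + 1), 19 of 63 members were called, all higher, among 3078 of 16280 genes (18.9%), 2933 higher and 145 lower. Limma called 0 members with 0.1 added, among 14 genes (0.086%), and 0 with no filter, among 7 genes (0.0272%). Without rat E, edgeR called 27 members, all higher, among 6388 genes (38.3%), 3861 higher and 2527 lower.

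The 2 times also differed in neuron markers on the control side, at 8.82 to 9.52 log2 CPM in the 4 rats at 8 weeks, against 6.93 to 9.11 in the 3 rats at 6 weeks. With the mean of these markers in the fit, the members' median was 0.06 with 36 of 68 positive, against -0.01 over all genes, and 4 members had an unadjusted p under 0.05, against 1632 of 16346 genes. Markers of other cells moved as well. Those of myelinating Schwann cells were lower at 8 weeks in 8 of 8 (median log2 difference -1.10) and of macrophages in 10 of 10 (-1.34). Those of fibroblasts were lower in 9 of 9 (-1.01) and of red blood cells in 5 of 5 (-1.43). Skeletal muscle markers were higher in 11 of 11 (4.47), but none of them had times that did not overlap. They averaged 8.77 log2 CPM in rat H's control library and 1.27 to 1.95 in those of rats D, C and G, against 1.49 to 3.20 at 6 weeks. The part of these cell types in the members' levels was not tested. Longer transcripts were higher at 8 weeks across all genes (Spearman's rho 0.215 over 15806 genes), and the members are long, with a median at percentile 80.1 of transcript length over the 67 members with a value. With a trend in length removed from every library the members' median was 0.14. On the TPM scale the median of all genes moved to 0.44 and that of the members to 0.62.

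Plxnc1 carried the smallest p of all members on the control side. It averaged 13.5 ± 1.76 TPM at 8 weeks (SD, n = 4) and 4.48 ± 1.43 TPM at 6 weeks (SD, n = 3), a log2 difference of 1.00 (SE 0.17) with an adjusted p of 0.0785 in edgeR. Its libraries stood at 12.3, 15.6, 14.3 and 11.8 TPM at 8 weeks, against 5.01, 2.86 and 5.56 TPM at 6 weeks, without overlap. With neuron markers in the fit its difference was 0.81. DESeq2 gave it an adjusted p of 8.36e-06, and over all alternatives run it ranged from that value to 0.476, without rats A and B. Its ligand Sema7a stood at 84.3, 67.2, 77.5 and 35.1 TPM at 8 weeks, against 18.9, 7.93 and 49.8 TPM at 6 weeks, a log2 difference of 0.90 (SE 0.48) that was -0.16 with neuron markers in the fit.

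Epha6, an EphA receptor, stood at 2.37, 2.75, 2.84 and 1.300 TPM at 8 weeks, against 0.554, 0.273 and 1.11 TPM at 6 weeks, a log2 difference of 1.36 (SE 0.38). Efna5, a ligand of EphA receptors, stood at 10.6, 12.05, 12.4 and 5.86 TPM at 8 weeks, against 1.96, 0.496 and 4.05 TPM at 6 weeks, a difference of 1.71 (SE 0.53), the largest among the 5 members with the smallest p. With neuron markers in the fit Epha6 was at 0.54 and Efna5 at 0.54. In each of these 2 the lowest library at 8 weeks, that of rat H, lay above the highest at 6 weeks, that of rat E. Nrp1, the neuropilin that binds Sema3a, stood at 8.37, 12.5, 15.8 and 10.9 TPM at 8 weeks, against 4.59, 3.47 and 5.32 TPM at 6 weeks, a difference of 0.74 (SE 0.22). Sema6d stood at 9.53, 12.05, 9.97 and 7.57 TPM at 8 weeks, against 3.23, 3.25 and 6.36 TPM at 6 weeks, a difference of 0.61 (SE 0.18). The values with neuron markers in the fit were 0.70 for Nrp1 and 0.40 for Sema6d. Adjusted p-values of these 4 in the quasi-likelihood test were 0.105 for Epha6, 0.110 for Sema6d, 0.111 for Nrp1 and 0.116 for Efna5.

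**Figure D4:**
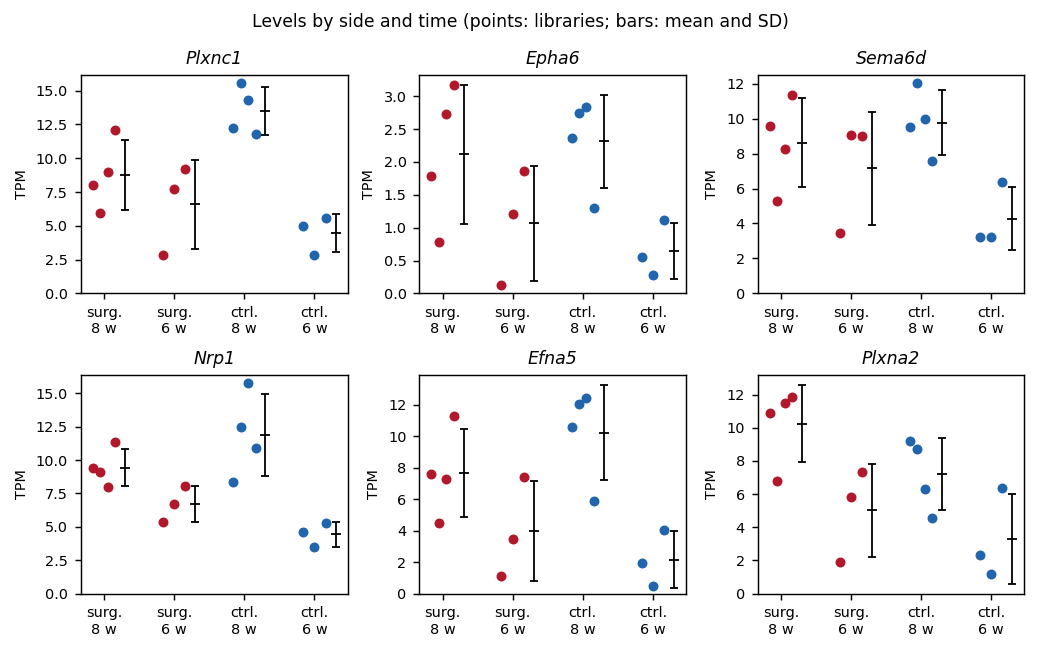
TPM of 6 guidance genes in each library, by side and time, with mean and SD beside the points (n = 4 rats at 8 weeks and 3 at 6 weeks). The control libraries at 8 weeks of Plxnc1, Epha6, Sema6d, Nrp1 and Efna5 all lie above those at 6 weeks, while the surgical libraries of the 2 times overlap for all 6 genes in TPM.

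Among the other receptors on the control side, Plxna4 stood at 3.22, 4.06, 3.702 and 2.59 TPM at 8 weeks, against 1.09, 0.665 and 2.19 TPM at 6 weeks, with a log2 difference of 0.84 (SE 0.26). Robo2 stood at 15.1, 17.2, 17.8 and 10.1 TPM at 8 weeks, against 3.801, 1.86 and 9.57 TPM at 6 weeks, with one of 0.97 (SE 0.37). Dcc had a difference of 0.86 (SE 0.36) and Epha4 of 0.77 (SE 0.30). Among ligands, Slit1 stood at 14.3, 15.5, 22.1 and 10.1 TPM at 8 weeks, against 3.36, 0.968 and 7.47 TPM at 6 weeks, a difference of 1.49 (SE 0.50). With neuron markers in the fit Plxna4 was at 0.28, Robo2 at 0.16 and Slit1 at 0.39. All 5 Unc5 and Dcc receptors were positive (median 0.86), as were both neuropilins (0.50), 6 of 9 plexins (0.40) and 6 of 8 EphA receptors (0.55). On the log2(TPM + 1) scale these medians were 0.37, 1.07, 0.85 and 0.44 in that order. The median of all genes on that scale was 0.44 with a filter on low levels and 0.13 without one. Slit2, which repels through the same Robo receptors, was lower in scaled counts at -0.38 (SE 0.15) but higher by 0.24 on the log2(TPM + 1) scale. Its libraries stood at 5.12, 7.47, 5.86 and 6.504 TPM at 8 weeks, against 5.01, 4.36 and 6.08 TPM at 6 weeks.

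On the surgical side the same comparison of times gave no balance either way, with 37 members higher and 32 lower at 8 weeks and a median of 0.04, against 0.01 over all 16606 genes. None passed the adjusted threshold in edgeR, which called 0 genes (percent called 0). DESeq2 called 0 members and 8 genes (0.0482%), and limma on log2(TPM + 1) 0 members and 5 genes (0.0305%). At an unadjusted p under 0.05 there were 3 members, 1 higher and 2 lower, and 1089 genes, 6.56%. Those 3 were Plxna2 at 0.84 (SE 0.32), Ntn4 at -1.03 (SE 0.36) and Efnb3 at -1.49 (SE 0.54), each with an adjusted p of 0.671 in edgeR. Plxna2 was at 0.54 without rat A and 0.38 with neuron markers in the fit. In scaled counts 2 members had times that did not overlap, Plxna2, which was higher at 8 weeks, against 5.92% of all genes, and Efnb3, which was lower, against 4.17%. Neuron markers on this side stood at 8.35 to 9.47 log2 CPM at 8 weeks, against 6.09 to 9.12 at 6 weeks.

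Ntn4, a netrin of basement membranes, stood at 4.84, 4.58, 5.25 and 6.87 TPM at 8 weeks, against 9.86, 4.74 and 12.01 TPM at 6 weeks. Efnb3, a transmembrane ephrin, stood at 1.46, 0.349, 0.440 and 1.42 TPM at 8 weeks, against 2.17, 2.097 and 1.76 TPM at 6 weeks, with every rat at 8 weeks below every rat at 6 weeks. On the control side, Efnb3 stood at 0.360, 0.780, 0.224 and 8.800 TPM at 8 weeks, against 2.05, 2.23 and 2.71 TPM at 6 weeks. There too rats D, C and G lay below every rat at 6 weeks, and the value of 8.800 TPM was that of rat H's muscle-rich library. Rat C's surgical library, the richest in muscle markers, held 0.349 TPM, and the part of muscle RNA was not tested. Efna2, a ligand of EphA receptors, stood at 1.42, 0.610, 0.655 and 1.11 TPM at 8 weeks, against 1.19, 2.09 and 1.14 TPM at 6 weeks and had a log2 difference of -0.91 (SE 0.43), which was -0.56 without rats B, C and H and -0.33 without rats A and B. Plxnb1, the receptor of Sema4d, stood at 3.89, 3.49, 2.57 and 3.18 TPM at 8 weeks, against 3.003, 4.97 and 3.82 TPM at 6 weeks and had -0.49 (SE 0.24), or -0.25 without rats A and B. Nrp1 stood at 9.39, 9.08, 7.97 and 11.3 TPM at 8 weeks, against 5.38, 6.74 and 8.06 TPM at 6 weeks on the surgical side, and the shift between times on the 2 sides is tested by the difference of the side changes above.

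The pathway beyond the 69 members was read from 4 further lists, of cytoplasmic effectors (46 genes measured), other cues and receptors (25), adhesion molecules and co-receptors (11) and myelin-associated inhibition (12). None of these genes passed the adjusted threshold in edgeR in any of the 6 comparisons. At an unadjusted p under 0.05 there were 2 of them over both times, against 412 of 17035 genes tested (2.42%). Over both times, 27 of 46 effectors, 14 of 25 other cues, 9 of 11 adhesion molecules and 8 of 12 myelin-associated genes were higher on the surgical side. Over all genes tested the share was 50.1%. The mean side difference of each list was highest in rat B, at 0.68, 0.68, 1.42 and 1.55 log2 CPM in that order. In rat A it was negative, at -0.28, -0.24, -0.68 and -0.76. Draxin and Vangl2 were the only genes of these lists above their control in all 7 rats, against 71 of 17035 genes tested (0.417%). Draxin is a secreted protein known from mouse and chick to bind Dcc, and Vangl2 is a planar polarity protein. They were named after their values were seen, and both were scarce, at most 0.343 TPM for Draxin and 1.12 TPM for Vangl2. Draxin stood, at 8 weeks, at 0.162, 0.343, 0.219 and 0.327 TPM on the surgical side, against 0.0576, 0.0769, 0.0385 and 0.211 TPM on the control side, and, at 6 weeks, at 0.212, 0.192 and 0.285 TPM on the surgical side, against 0.131, 0.0641 and 0.226 TPM on the control side, with a log2 difference of 1.25 (SE 0.36), an unadjusted p of 0.00796 and an adjusted p of 1 in the quasi-likelihood test. Vangl2 stood, at 8 weeks, at 0.632, 1.12, 0.437 and 0.422 TPM on the surgical side, against 0.503, 0.246, 0.286 and 0.216 TPM on the control side, and, at 6 weeks, at 0.303, 0.852 and 0.458 TPM on the surgical side, against 0.237, 0.104 and 0.350 TPM on the control side, with 1.07 (SE 0.37). On the control side, at an unadjusted p under 0.05, 15 effectors were higher and 6 lower at 8 weeks, as were 9 and 1 of the other cues, 5 and 0 of the adhesion molecules and 3 and 1 of the myelin-associated genes, against 2270 higher and 2838 lower of 16346 genes tested.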

How the data were processed

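RNA-seq of 14 libraries, a surgical and a control one from each of 7 rats, was analysed. The submitters' processing notes name FastQC, Trim Galore, Salmon and DESeq2, with versions and the genome build not given in the sources used here. The authors deposited estimated counts (whole numbers) and TPM per gene, which the file headers name by library. Titles and library names exchange letters C and D on both sides, which leaves every pair intact; title letters were used. The labels name polyA RNA and, in the extraction protocol, ribosomal depletion.

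The test was edgeR 4.0.16 (R 4.3.3) on the estimated counts after filterByExpr at a minimum count of 10 and TMM scaling, as a robust quasi-likelihood model over all genes, with the rat as a block between sides because both sides came from the same animal. Tests were two-sided, and a gene was called at a Benjamini-Hochberg adjusted p under 0.05 over all genes tested. Relations with neuron markers were tested by exact permutation over rats, adjusted over all genes tested. The script was tested on simulated data. Log2 CPM used a prior count of 2. The deviations of a rat's surgical and control libraries from their group means correlated at -0.408 to 0.750 across genes. Members were named if among the 5 smallest p-values of a comparison, the most abundant of a family, or on a list of 10 with a known role in sensory axons. The members and all gene lists were chosen with earlier results of these data known. Alternatives were DESeq2 1.42.0, its size factors, other filters, no robust dispersion, no block, libraries of 1 time only, limma 3.58.1 (log2 of TPM plus 1 or plus 0.1; genes reaching 0.5 TPM in 3 libraries), each rat left out, rats B, C and H or A and B left out, neuron markers as a covariate, and a lowess trend (span 0.3) with transcript length removed. With the rat as a block, p-values between sides measure how the side difference varied across rats. The main tests of the sides at each time were fitted on all 14 libraries, so both times shared that spread. For the comparisons between times on a side, p-values measure the spread between rats.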

Additional observations from a re-analysis of the deposited data

Results flagged for a closer look

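Of 68 groups of 4 libraries (34 named members on each side at 8 weeks), 4 held a library set apart from the other 3 by Dixon's criterion, which flags about 1 in 20 groups by chance. Unc5b stood at 9.22 TPM in rat C's surgical library, against 1.93 to 2.61 TPM in the other 3 surgical libraries at 8 weeks. The muscle markers of that library averaged 11.18 log2 CPM, and their part in the value was not tested. Efnb3 stood at 8.80 TPM in rat H's control library, against 0.224 to 0.780 TPM in the other 3 control libraries, and Sema6b stood there at 5.43 TPM, against 8.38 to 8.82 TPM. The muscle markers of that library averaged 8.77 log2 CPM, and their part in these values was not tested. Efnb3 stood at 0.349 TPM in rat C's surgical library, and Unc5b at 2.37 TPM in rat H's control library. Efna4 stood at 1.60 TPM in rat H's surgical library, against 1.08 to 1.15 TPM in the other 3.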

How the results depend on the processing

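Under all alternatives no member was called in the 4 comparisons of the sides or between times on the surgical side. Leaving out 1 rat at a time gave 0 members called in each of these and 0 to 27 between times on the control side, where 27 came without rat E; DESeq2 called 14 there and limma on log2(TPM + 1) called 19, against 0 with 0.1 added or no filter. The members' median on the control side was 0.90 in limma on log2(TPM + 0.1), against 0.25, and that of all genes was 0.56 there. Signs turned on the control side for Sema5a (-0.60), which was 0.0575 in limma on log2(TPM + 1) with and without a filter and 0.0619 with 0.1 added, and for Slit2 (-0.38), at 0.24 with and without a filter and 0.27 with 0.1 added. The median of all genes in those settings was 0.44 with a filter, 0.13 without one and 0.56 with 0.1 added. Sema7a (0.90) turned to -0.16 with neuron markers in the fit. Without the block for the rat, that is without the pairing, 0 members were called over both times, with a median of 0.07. No member's call changed, and 2 genes were called at 6 weeks (0.0117%), against 0 with the block. The cause of these shifts was not tested. With 3 or 4 rats a time and neuron markers that span over 3 log2 units, members with few counts, such as Dcc, Robo3, Ntn5 and Unc5d, allow little precision.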
